A study of Mus musculus with 6 samples.

Results

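The 8 genes described here form the core of the Th1 state, in which a helper T cell makes interferon gamma. They are the cytokine gene Ifng, the transcription factor genes Tbx21, Hlx and Runx3, the interleukin 12 receptor genes Il12rb1 and Il12rb2, and the interferon gamma receptor genes Ifngr1 and Ifngr2. They were taken by gene name from the 54532 genes of the deposited table, each name matched 1 row, and all 8 passed the filter on low counts. All libraries came from spleen CD4+ T cells of C57BL/6 mice with acute-phase EAE (experimental autoimmune encephalomyelitis), in which immune cells attack the myelin of the brain and spinal cord. The 3 control libraries are from mice labelled wild type, with no Cre and no floxed allele named. The 3 Ogt-KD libraries are from mice with the genotype Ogtfl/wt CD4-Cre, that is 1 floxed and 1 wild-type allele of the O-GlcNAc transferase gene and a Cre recombinase under Cd4 regulatory sequence, which is active from the thymic stage that also gives rise to CD8 T cells. Effects of the Cre and of the Ogt allele cannot be told apart, since no control carries the Cre. The labels give no age or sex and do not say how many mice stand behind a library. The p-values therefore measure the spread between these libraries.

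Th1 cells arise when a T cell that has met antigen receives interleukin 12 and interferon gamma. Interleukin 12 binds a receptor of the chains IL-12Rβ1 and IL-12Rβ2 and acts through the kinases TYK2 and JAK2 on STAT4, while interferon gamma binds IFN-γR1 and IFN-γR2 and acts through JAK1 and JAK2. Both signals promote the expression of T-bet, the product of Tbx21, which opens the Ifng locus and raises Il12rb2, and T-bet works with Runx3 and Hlx. In EAE, Th1 and Th17 cells are the main helper cells described in the inflamed tissue.

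The sequences upstream of 4 of these genes are shown because they are the stretches on which the factors named above could act. RefSeq windows on GRCm38.p6 were at hand for 7 of the 8 genes, with 8 windows in all since Runx3 has a distal and a proximal start; Il12rb1 is named only. Each window holds the 250 bases before the annotated start, written 5′ to 3′ on the strand of the gene. Capitals mark matches, on either strand, to GGTGTGA (a T-box core), TGTGGT (a RUNX core), TTCNNNGAA (the site type bound by STAT dimers) or TATAAA. None of these 4 motifs overlapped another in the member windows.

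Ifng, chr10:118440796-118441045, plus strand: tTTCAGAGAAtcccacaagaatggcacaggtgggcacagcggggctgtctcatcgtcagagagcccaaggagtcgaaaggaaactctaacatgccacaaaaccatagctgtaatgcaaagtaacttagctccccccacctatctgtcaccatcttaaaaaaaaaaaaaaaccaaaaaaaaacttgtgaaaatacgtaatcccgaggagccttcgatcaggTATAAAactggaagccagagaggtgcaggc
Tbx21, chr11:97115332-97115581, minus strand: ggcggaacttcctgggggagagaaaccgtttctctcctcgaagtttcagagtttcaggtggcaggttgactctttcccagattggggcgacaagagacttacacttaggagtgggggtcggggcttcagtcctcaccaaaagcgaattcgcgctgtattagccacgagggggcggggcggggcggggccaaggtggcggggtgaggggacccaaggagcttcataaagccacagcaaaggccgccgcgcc
Il12rb2, chr6:67376189-67376438, minus strand: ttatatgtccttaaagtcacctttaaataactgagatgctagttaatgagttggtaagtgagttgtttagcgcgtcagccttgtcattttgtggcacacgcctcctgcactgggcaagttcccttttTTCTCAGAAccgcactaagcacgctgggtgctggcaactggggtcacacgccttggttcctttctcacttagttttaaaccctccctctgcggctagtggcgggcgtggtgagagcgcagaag
Runx3, distal start, chr4:135120395-135120644, plus strand: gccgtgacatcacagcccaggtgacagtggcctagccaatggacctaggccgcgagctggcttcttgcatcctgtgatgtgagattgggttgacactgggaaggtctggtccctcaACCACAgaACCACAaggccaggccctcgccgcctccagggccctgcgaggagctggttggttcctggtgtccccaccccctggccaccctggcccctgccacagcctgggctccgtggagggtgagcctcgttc

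The Ifng window held the STAT-type match TTCAGAGAA at 249 to 241 bases before the start and TATAAA at 30 to 25 bases before it. The Il12rb2 window held the STAT-type match TTCTCAGAA at 123 to 115 bases before its start. The distal Runx3 window held a pair of RUNX matches, both read as ACCACA on the strand shown, at 134 to 129 and 126 to 121 bases before the start. The windows of Tbx21, Hlx, Ifngr1, Ifngr2 and the proximal Runx3 start held no match to any of the 4. Of 32851 mouse windows of the same length, 3.33% held the T-box core, 14.0% the RUNX core, 7.02% the STAT-type motif and 12.4% TATAAA. A match describes the letters of the window and is not a measured binding site.

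Total counts ran from 18127031 to 25683453 per library. Values below are normalised read counts in CPM (read counts scaled to a common library size, with TMM factors from edgeR) unless another unit is named. Of 16075 genes tested with edgeR's quasi-likelihood test, 1 passed at an adjusted p under 0.05 (0.00622%), the pseudogene Gm33707, which is outside the naming rule and is named because it is the only one. On principal component 1 (44.8% of the variance) the replicate 3 libraries of both groups lay together, at 40.7 and 38.4, against -35.7 and -42.4 for Ogt-KD replicates 1 and 2. Ogt itself, the targeted gene, stood at 599, 628 and 562 CPM in the control libraries and at 662, 599 and 459 CPM in Ogt-KD replicates 1, 2 and 3, and did not pass (edgeR adjusted p = 0.981, log2 fold change -0.06, SE 0.15). Counts over the whole gene do not check a deletion of part of it.

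None of the 8 genes passed in edgeR. In 3 of 3 pairs of the same replicate number, 6 of them, Ifng, Tbx21, Hlx, Il12rb1, Il12rb2 and Ifngr1, had higher values in the Ogt-KD library. Runx3 and Ifngr2 had lower values in 3 of 3. The labels state no pairing, and the share of all genes with 3 of 3 pairs in the same direction was not computed. Such counts, here and below, are therefore description only. At an unadjusted p under 0.05 edgeR had 3 members higher (Ifng, Il12rb1 and Hlx) and 1 lower (Ifngr2), where 7.52% of all genes tested stood at that level, 5.04% higher and 2.48% lower. DESeq2 called 1 member, Ifng, against 0.638% of the genes it tested, and limma-voom called 0. In the blocked fit, which pairs libraries by replicate number, edgeR again called 0 of 8, against 0.292% of all genes called (0.199% higher and 0.0933% lower). At an unadjusted p under 0.05 that fit had 5 members higher and 1 lower, against 13.2% of all genes, 7.55% higher and 5.63% lower. The members' log2 fold changes had a median of 0.69, beside -0.005 over all genes tested, and 6 of 8 were positive. Without both replicate 3 libraries edgeR called 2 members, both higher, Ifng and Tbx21, against 0.214% of all genes (0.0797% higher).

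**Figure D1:**
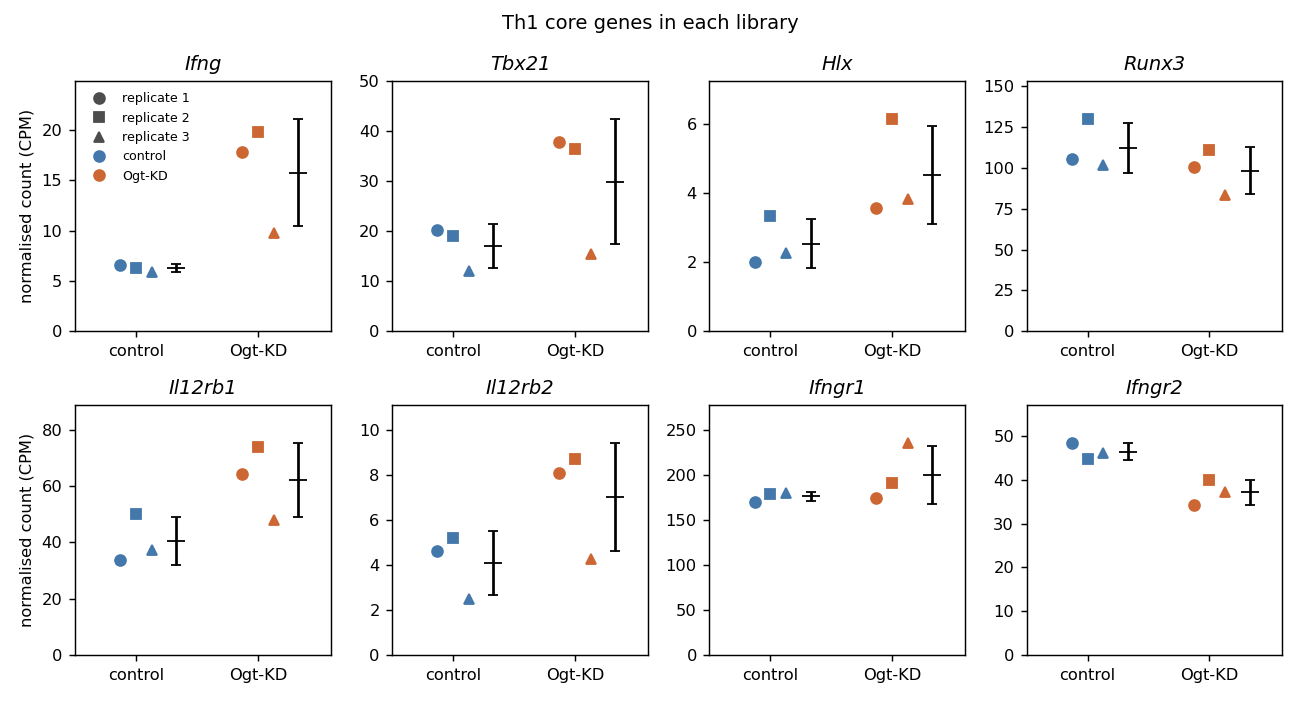
Normalised read counts (CPM, vertical axes from 0) of the 8 genes in the 3 control (blue) and 3 Ogt-KD (orange) libraries, with symbols for the replicate number and black bars for mean and SD. Ifng and Hlx lie higher in every Ogt-KD library than in any control library and Ifngr2 lies lower, while the other 5 genes overlap.

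Ifng encodes interferon gamma, the cytokine that defines Th1 cells. It stood at 6.62, 6.28 and 5.86 CPM in control replicates 1, 2 and 3 and at 17.8, 19.8 and 9.75 CPM in Ogt-KD replicates 1, 2 and 3. The control libraries were close together, all Ogt-KD libraries lay above them, and Ogt-KD replicate 3 was the lowest of its group. The means were 6.25 ± 0.383 and 15.8 ± 5.31 CPM (SD, n = 3 each), with a coefficient of variation of 6.12% in control and 33.6% in Ogt-KD libraries. Its log2 fold change was 1.33 (SE 0.27, 95% interval 0.69 to 1.97), a ratio of 2.51, at an edgeR adjusted p of 0.483. The adjusted p was 0.0634 with the replicate block and 0.0462 without both replicate 3 libraries in edgeR, 0.0028 in DESeq2 and 0.540 in limma-voom. In the authors' deposited table Ifng had a log2 fold change of 1.32 with an adjusted p of 0.00258, where 0.417% of the genes they tested were under 0.05.

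The Ifng gene (10:118441046-118445892 on GRCm38, plus strand) shares part of its span with AC153498.1, an unspliced transcript model of unknown coding status on the same strand, called Gm49751 in GENCODE M21. The model lies inside the Ifng gene, covers 2722 bases and shares 336 of the 1295 exon bases of Ifng, so the rest of it is Ifng intron. Reads in the shared bases could be assigned to either record, and how such reads were counted is not stated. The model had 33, 58 and 11 reads in the control and 106, 122 and 47 reads in the Ogt-KD libraries of replicates 1, 2 and 3. Its log2 fold change was 1.54 (SE 0.58, edgeR adjusted p = 0.624), and the Ogt-KD library was the higher one in 3 of 3 same-number pairs, though the groups overlapped.

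Tbx21 (11:97098071-97115331, minus strand) encodes T-bet, the T-box factor that directs Th1 differentiation. It stood at 20.2, 19.01 and 12.1 CPM in the control and 37.8, 36.4 and 15.5 CPM in the Ogt-KD libraries of replicates 1, 2 and 3. Replicate 3 was the lowest library in both groups, and Ogt-KD replicate 3 lay within the control range. On the log2 scale the difference was 0.80 (95% interval -0.05 to 1.65, SE 0.36). EdgeR's adjusted p was 0.669, and 0.0479 without both replicate 3 libraries. Same-number differences in log2 CPM were 0.90, 0.93 and 0.35.

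Hlx (1:184727140-184732619, minus strand) encodes a homeobox factor that acts with T-bet on Ifng. It was among the least abundant members, with 44, 83 and 40 reads in the control libraries and 73, 121 and 96 reads in the Ogt-KD libraries. The thinnest library, with 40 reads, has an exact 95% Poisson interval of 28.6 to 54.5 reads, which covers counting error only. In normalised counts Hlx stood at 2.01, 3.34 and 2.25 CPM against 3.58, 6.13 and 3.84 CPM, with no overlap. On the log2 scale this was 0.82 (95% interval 0.09 to 1.56, SE 0.31), at an edgeR adjusted p of 0.624. It was 0.54 without Ogt-KD replicate 2. Same-number differences of 0.80, 0.86 and 0.74 were closer to each other than those of Tbx21 or Ifng.

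Runx3 (4:135120652-135177990, plus strand) encodes a Runt factor that partners T-bet at Ifng and also supports CD8 T cell identity. It had the second highest level per length of the 8 genes, behind Ifngr1, and stood at 105.5, 129.8 and 101.7 CPM in control and 100.6, 111.2 and 83.1 CPM in Ogt-KD libraries. The groups overlapped, and each Ogt-KD library was lower than the control library of the same number. The fitted log2 fold change was -0.19 (SE 0.14, 95% interval -0.53 to 0.14, edgeR adjusted p = 0.855). Leaving out control replicate 2 gave -0.07, Ogt-KD replicate 3 gave -0.09 and Ogt-KD replicate 2 gave -0.29. Of the 3 transcription factor genes, Tbx21 and Hlx thus had positive fold changes and Runx3 a negative one, with none passing.

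**Figure D2:**
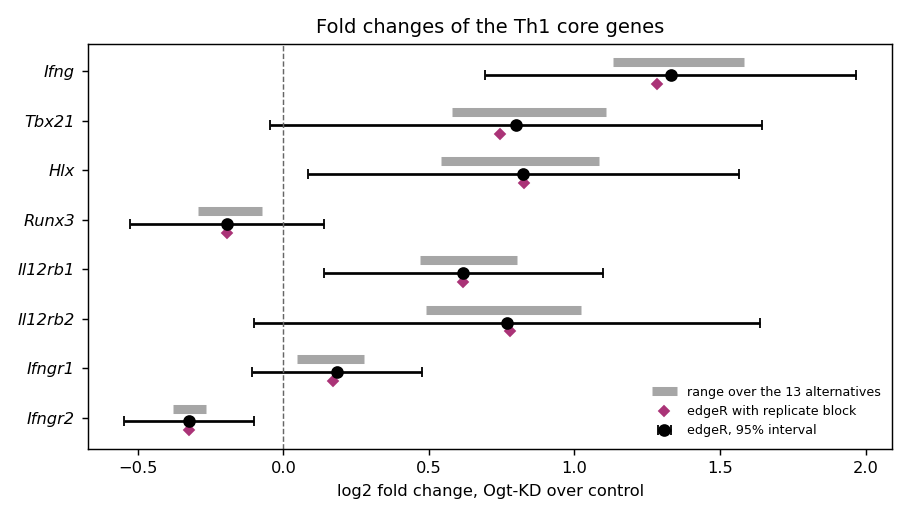
Log2 fold change (Ogt-KD against control) for each of the 8 genes, with the edgeR estimate and its 95% interval (black), the edgeR estimate with the replicate block (purple) and the range over the 13 alternatives (grey bar). Every gene keeps its sign over the alternatives, and the intervals of Ifng, Hlx, Il12rb1 and Ifngr2 leave out 0 before adjustment for the number of genes.

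The chains of the interleukin 12 receptor had higher mean values in the Ogt-KD libraries. Il12rb1 (8:70808449-70821424, plus strand), the chain shared with the interleukin 23 receptor, stood at 33.8, 50.02 and 37.4 CPM in control and 64.4, 74.01 and 47.8 CPM in Ogt-KD libraries. Only Ogt-KD replicate 3 lay below a control value, that of control replicate 2. The log2 fold change was 0.62 (SE 0.20, 95% interval 0.14 to 1.10, edgeR adjusted p = 0.583, 0.0913 with the replicate block).

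Il12rb2 (6:67291318-67376188, minus strand) encodes the signalling chain that recruits STAT4 and is the chain restricted to Th1 cells among helper cells. It stood at 4.61, 5.195 and 2.48 CPM in control and 8.08, 8.72 and 4.28 CPM in Ogt-KD libraries. Replicate 3 was the lowest in both groups, and Ogt-KD replicate 3 lay below control replicates 1 and 2. Its log2 fold change was 0.77 (SE 0.37, 95% interval -0.10 to 1.64, edgeR adjusted p = 0.686), and 0.49 without control replicate 3. Same-number differences were 0.80, 0.74 and 0.76. Il12rb2 shares 1519 of its 3794 exon bases with exons of the opposite-strand gene Serbp1, and the strand setting of the counting is not given, so its level is uncertain. Serbp1 stood at 603, 471 and 631 CPM in control and 462, 461 and 704 CPM in Ogt-KD libraries, a log2 fold change of -0.07. Within each group, replicate 3 was the highest library for Serbp1 and the lowest for Il12rb2.

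The 2 chains of the interferon gamma receptor differed in sign. Ifngr1 (10:19591949-19610229, plus strand), the ligand-binding chain, stood at 170.3, 178.3 and 179.7 CPM in control and 173.7, 190.5 and 235.4 CPM in Ogt-KD libraries. The high value was Ogt-KD replicate 3 and the groups overlapped. The log2 fold change was 0.18 (SE 0.12, 95% interval -0.11 to 0.47, edgeR adjusted p = 0.829). Leaving out Ogt-KD replicate 3 gave 0.05, and leaving out Ogt-KD replicate 1 gave 0.28.

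Ifngr2 (16:91547072-91565623, plus strand), the chain that brings JAK2 and sets how strongly T cells respond to the cytokine, stood at 48.5, 44.7 and 46.3 CPM in control and 34.3, 39.9 and 37.2 CPM in Ogt-KD libraries. All Ogt-KD libraries lay below all control libraries. The log2 fold change was -0.32 (SE 0.09, 95% interval -0.55 to -0.10), a ratio of 0.799, at an edgeR adjusted p of 0.556. Of all genes tested, 5.88% separated in this direction, and 7.43% separated upward as Ifng and Hlx did.

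Ratios between members within a library do not depend on library scaling. The log2 ratio of Ifngr1 to Ifngr2 in FPKM was 2.22, 2.40 and 2.36 in control and 2.74, 2.66 and 3.06 in Ogt-KD libraries, with no overlap. It was higher by 0.50 in the Ogt-KD group (exact two-sided permutation p = 0.1, the smallest that 3 against 3 allows, adjusted p = 0.30 over 6 ratios). The log2 ratio of Ifng to the summed T cell markers was -9.44 ± 0.13 (SD, n = 3) in control and -8.06 ± 0.65 (SD, n = 3) in Ogt-KD libraries, higher by 1.38 with no overlap (exact permutation p = 0.1). The same ratio for Tbx21 differed by 0.84 with overlap (exact permutation p = 0.3), and by 1.31 without Ogt-KD replicate 3. Ifng relative to Tbx21 differed by 0.54 (exact permutation p = 0.2).

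Other member ratios showed smaller differences. The log2 ratio of Il12rb2 to Il12rb1 was -3.24 ± 0.53 in control and -3.07 ± 0.26 in Ogt-KD libraries (SD, n = 3 each, exact permutation p = 0.7), and the difference of 0.16 became -0.12 without control replicate 3. Runx3 relative to Zbtb7b, which encodes ThPOK, the CD4 lineage factor that opposes Runx3, stood at -1.12 ± 0.12 and -1.13 ± 0.07 (SD, n = 3 each), a difference of -0.01 (exact permutation p = 1).

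Levels per length, in the FPKM that the authors deposited, were compared over the 6 libraries. Ifngr1 was first in every library, at 59.03 to 82.6 FPKM, and did not overlap Runx3 at 16.6 to 26.02 FPKM. Runx3 was second in every library, although its range reached that of Il12rb1 (8.12 to 17.8 FPKM). Il12rb1, Ifngr2 (8.99 to 12.7 FPKM), Tbx21 (4.85 to 15.02 FPKM) and Ifng (4.51 to 15.1 FPKM) overlapped with their neighbours, and each neighbouring order held in 4 of 6 libraries. Hlx (0.87 to 2.66 FPKM) and Il12rb2 (0.65 to 2.27 FPKM) lay below Ifng in 6 of 6 libraries and overlapped each other. In the control group Ifng was below Tbx21, at 4.81 ± 0.275 against 6.85 ± 1.74 FPKM, while in the Ogt-KD group both were near 12, at 12.1 ± 4.01 and 11.9 ± 4.93 FPKM (SD, n = 3 each).

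**Figure D3:**
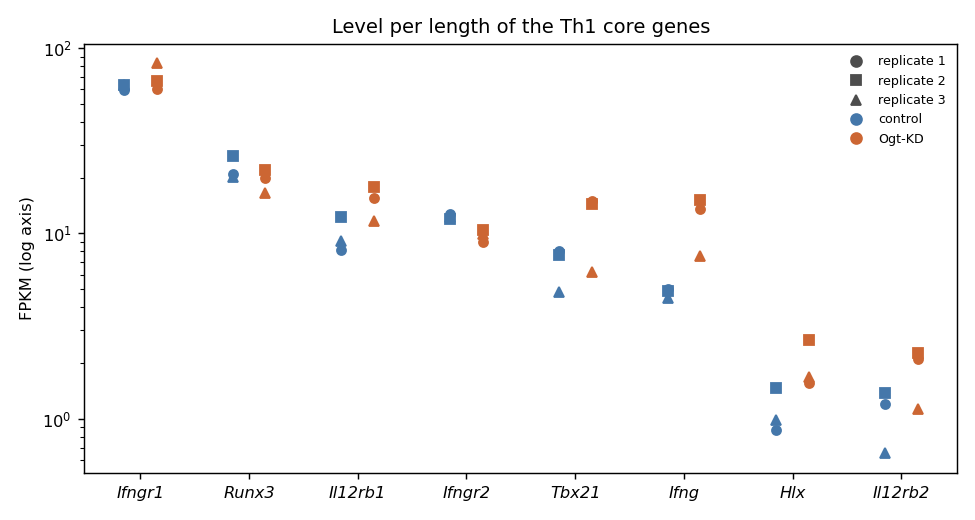
Level per length (deposited FPKM, log axis) of the 8 genes, ordered by their mean over the 6 libraries, with control in blue, Ogt-KD in orange and symbols for replicate number. Ifngr1 and Runx3 lead in every library, and Hlx and Il12rb2 lie below the other 6 genes.

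Genes of the pathway around these members were read from 4 lists. Some genes, such as Irf1 and Socs1, stand in more than 1 list. Of the 17 tested genes that carry interleukin 12, interleukin 18 and interferon gamma signals, edgeR called 0, with a list median of 0.04 on the log2 scale. At an unadjusted p under 0.05, 2 were higher, both chains of the interleukin 18 receptor, where 5.04% of all genes were. The list median became -0.03 when either control replicate 3 or Ogt-KD replicate 2 was left out, 0.075 for control replicate 1, 0.076 for control replicate 2 and 0.11 for Ogt-KD replicate 3. Il18rap stood at 40.4, 46.2 and 43.5 CPM in control and 81.4, 75.4 and 75.8 CPM in Ogt-KD libraries. It passed with the replicate block (edgeR adjusted p = 0.117 without the block and 0.0363 with it). Il18r1 was at 0.62 on that scale (SE 0.09) and passed in DESeq2 only, with adjusted p-values of 0.480 in edgeR, 0.055 in edgeR with the block and 0.00254 in DESeq2. Interleukin 18 acts together with interleukin 12 on Th1 cells. The kinase gene Jak1 (-0.23, SE 0.11) and the feedback inhibitor gene Socs3 (-0.23, SE 0.10) lay below all control values in the Ogt-KD libraries without passing, where 5.88% of all genes separated downward. Stat4, the main transducer of interleukin 12, had 0.08 (SE 0.16).

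Partners and targets of T-bet, Hlx and Runx3 had higher values in the Ogt-KD libraries for 14 of the 19 genes tested. Their median was 0.59 on the log2 scale, beside -0.005 over all genes, and 9 were higher and 0 lower at an unadjusted p under 0.05, where 5.04% and 2.48% of all genes were. EdgeR called 0 of them, limma-voom 0, edgeR with the replicate block 2 (0.292% of all genes), and DESeq2 4 (0.638% of all genes). The chemokine gene Ccl5, named after its values were seen, stood at 39.4, 43.9 and 25.7 CPM in control and 95.6, 77.97 and 50.5 CPM in Ogt-KD libraries, with no overlap. It passed in the blocked fit, at an edgeR adjusted p of 0.0363 against 0.526 unblocked. Its log2 fold change was 1.04 (SE 0.28) unblocked and 1.03 (SE 0.11) with the block. Gzmb, which encodes granzyme B, had 1.32 (SE 0.34), Prdm1, which encodes Blimp-1, had 0.69 (SE 0.15), and the T-bet target Cxcr3 had 0.48 (SE 0.12), each with an edgeR adjusted p of 0.483 to 0.526. In DESeq2 Gzmb and Prdm1 passed (adjusted p = 0.0147 and 0.0396), as did Ccl5 (0.0396), and Cxcr3 did not (0.167). The separation of groups was upward in 7 of the 19 genes and downward in 0, where 7.43% and 5.88% of all genes separated.

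Genes induced by interferon gamma had a median of 0.12 on the log2 scale, with 20 of 24 positive, where Ifng had 1.33. EdgeR, the blocked fit, limma-voom and DESeq2 each called 0. In edgeR 1 was higher at an unadjusted p under 0.05 (Irf8, 0.25, SE 0.09), where 5.04% of all genes were. The list median became -0.21 when Ogt-KD replicate 2 was left out, -0.06 for control replicate 3, 0.32 for Ogt-KD replicate 3 and 0.31 for control replicate 2. The median of centred log2 CPM over the list was -0.01, 0.34 and -0.39 in control and 0.03, 0.57 and -0.53 in Ogt-KD replicates 1, 2 and 3, so that libraries of the same number lay closer to each other than to their groups. Ciita, the regulator of MHC class II genes, had 1.19 (SE 0.51), Gbp3, a guanylate-binding protein gene, 0.39 (SE 0.17) and Psmb9, an immunoproteasome subunit gene, 0.21 (SE 0.16). Leaving out Ogt-KD replicate 2 gave 0.79 for Ciita, 0.23 for Gbp3 and 0.068 for Psmb9. Psmb9 was also at 0.11 when control replicate 3 was left out and at 0.35 for Ogt-KD replicate 3. Many of these genes also answer to type I interferon.

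The 8 transcription factor genes of other fates had a median of 0.25 on the log2 scale with 6 of 8 positive, and edgeR, limma-voom and DESeq2 each called 0. In edgeR 2 were higher at an unadjusted p under 0.05, where 5.04% of all genes were. Foxp3, the regulatory T cell factor, had 0.70 (SE 0.22) at an edgeR adjusted p of 0.583, or 0.0427 in the blocked fit. Rora, a factor of Th17 and other effector cells, had 0.35 (SE 0.10). Ahr had 0.39 (SE 0.22) and Zbtb7b -0.18 (SE 0.14). Leaving out control replicate 3 moved the list median to 0.14, Ahr to 0.21 and Zbtb7b to -0.27. Ahr was also at 0.58 when control replicate 2 was left out and at 0.21 for Ogt-KD replicate 2, and Zbtb7b at -0.058 for Ogt-KD replicate 3. Higher values in the Ogt-KD libraries were therefore seen for Tbx21 and for Foxp3 alike, and the difference between their fold changes was not tested.

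**Figure D4:**
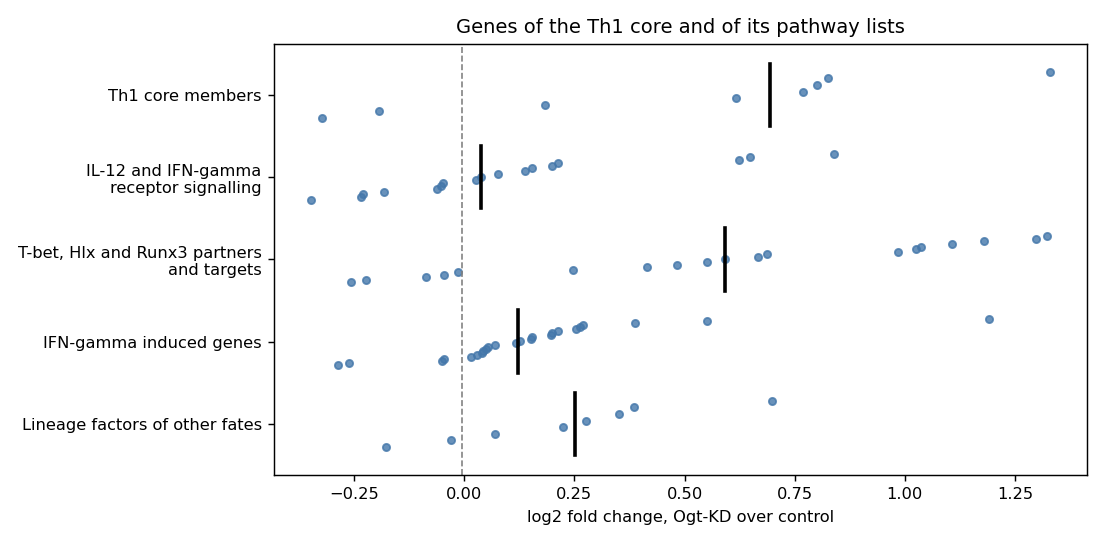
Log2 fold change, Ogt-KD against control (edgeR), for each tested gene of the Th1 core and of 4 pathway lists, with a black bar for each list median and a dashed line at the median of all genes tested. The medians are 0.69 for the core, 0.59 for partners and targets, 0.25 for other lineage factors, 0.12 for interferon gamma induced genes and 0.04 for receptor signalling.

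Markers of the labelled cell type were present in every library. Cd4 stood at 762 to 856 CPM in control and 739 to 903 CPM in Ogt-KD libraries, all 10 T cell markers had counts, and their summed level was 4802 to 5442 CPM in control and 4577 to 4900 CPM in Ogt-KD libraries. The median of centred log2 CPM over these markers was lower in the Ogt-KD library in 3 of 3 same-number pairs, by differences of -0.17, -0.13 and -0.068. Negative fold changes were seen for 7 of 10, with 2 separated downward, where 5.88% of all genes separated in that direction. EdgeR called 0 of the 10 and had 0 at an unadjusted p under 0.05. DESeq2 called 0. In bulk RNA, a change in the number of cells that express a gene cannot be told apart from a change in RNA per cell. Natural killer cells, type 1 innate cells and CD8 T cells also express Ifng, Tbx21 and Runx3. The defining natural killer gene Ncr1 was near 0, at 0.169 to 0.228 CPM in control and 0.160 to 0.456 CPM in Ogt-KD libraries. The other defining gene, Klrb1c, was not near 0. Its mean normalised count from the authors was 157 in control and 175 in Ogt-KD libraries. That of Ncr1 was 4.26 and 5.76, and that of Ifng 134 and 335. The 15 markers of natural killer and type 1 innate cells all had a count in some library. They summed to 190 to 287 CPM in control and 177 to 277 CPM in Ogt-KD libraries. Except in Ogt-KD replicate 1, most of that sum came from Tyrobp and Fcer1g, which myeloid cells also express. Together they stood at 128, 117 and 212 CPM in control and 85.04, 132 and 200.04 CPM in Ogt-KD replicates 1, 2 and 3. They were highest in replicate 3 of both groups, like the macrophage markers. The other 13 markers summed to 85.8, 73.1 and 74.6 CPM in control and 91.9, 78.2 and 77.1 CPM in Ogt-KD libraries, a split made after the values were seen. Of the 10 among the 15 that were tested, 6 lay above 0 and edgeR called 0. At an unadjusted p under 0.05, 1 was higher (Gzma) and 1 lower (Prf1), where 5.04% and 2.48% of all genes were. Both were named after their values were seen. DESeq2 called 1, Gzma (0.638% of all genes). The CD8 markers Cd8a and Cd8b1 summed to 13.3 to 16.5 CPM in control and 12.9 to 17.1 CPM in Ogt-KD libraries.

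Markers of other spleen cells moved with the libraries. The 12 dendritic cell markers, all with counts, summed to 994, 1067 and 483 CPM in control and 1432, 2148 and 799 CPM in Ogt-KD replicates 1, 2 and 3, and 11 of 12 had positive fold changes with a median of 1.05 on the log2 scale. EdgeR called 0 of them, with 4 higher at an unadjusted p under 0.05 (5.04% of all genes), and DESeq2 called 0. The blocked fit called 4, against 0.292% of all genes. Like these markers, Ifng, Tbx21 and Il12rb2 were highest in Ogt-KD replicates 1 and 2 and lowest in control replicate 3. Ogt-KD replicate 3 lay above all control libraries for Ifng, but not for Tbx21, Il12rb2 or the summed markers. Defining dendritic genes were low but not 0, with Zbtb46 at 2.37 to 7.09 CPM in control and 4.995 to 22.9 CPM in Ogt-KD libraries, and Flt3 at 4.22 to 15.2 and 14.2 to 30.7 CPM. The 11 macrophage and monocyte markers, all with counts, went the other way in their sum, at 2001, 2047 and 4355 CPM in control and 1059, 1221 and 4062 CPM in Ogt-KD libraries, highest in replicate 3 of both groups. Of these 11, 8 had negative and 3 positive fold changes, with a median of -0.49 on the log2 scale. In the authors' comparison the positive ones were Ccr2 (0.37), Ly6c2 (0.46) and Lyz2 (0.17). EdgeR called 0, with 1 higher and 0 lower at an unadjusted p under 0.05 (5.04% and 2.48% of all genes). Without both replicate 3 libraries, the setting in which Ifng and Tbx21 passed, edgeR called 5 of these 11 lower, against 0.135% of all genes. The 9 erythroid markers, all with counts, summed to 22.9 to 60.2 CPM in control and 45.5 to 219.4 CPM in Ogt-KD libraries, highest in Ogt-KD replicate 3. Of these 9, 8 had positive fold changes with a median of 1.502 on the log2 scale, and 2 separated upward (7.43% of all genes). The list median was higher in the Ogt-KD library in 3 of 3 same-number pairs. EdgeR called 0 of them, with 2 higher at an unadjusted p under 0.05 (5.04% of all genes). The blocked fit called 2 (0.292% of all genes) and DESeq2 1 (0.638% of all genes). B cell markers (9 of 9 with counts) summed to 909 to 1478 CPM in control and 1107 to 1768 CPM in Ogt-KD libraries. Neutrophil markers (9 of 9) summed to 127 to 235.5 and 143 to 369.5 CPM. Fold changes were positive for 9 of 9 in both lists, with medians of 0.31 and 0.41 on the log2 scale. The list median was higher in the Ogt-KD library in 2 of 3 same-number pairs for each. EdgeR called 0 in both, with 1 B cell and 0 neutrophil markers higher at an unadjusted p under 0.05 (5.04% of all genes). The part of these cells in the values of Tbx21, Il12rb1, Il12rb2, Hlx, Ifng, Ifngr1 and Ifngr2 was not tested.

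**Figure D5:**
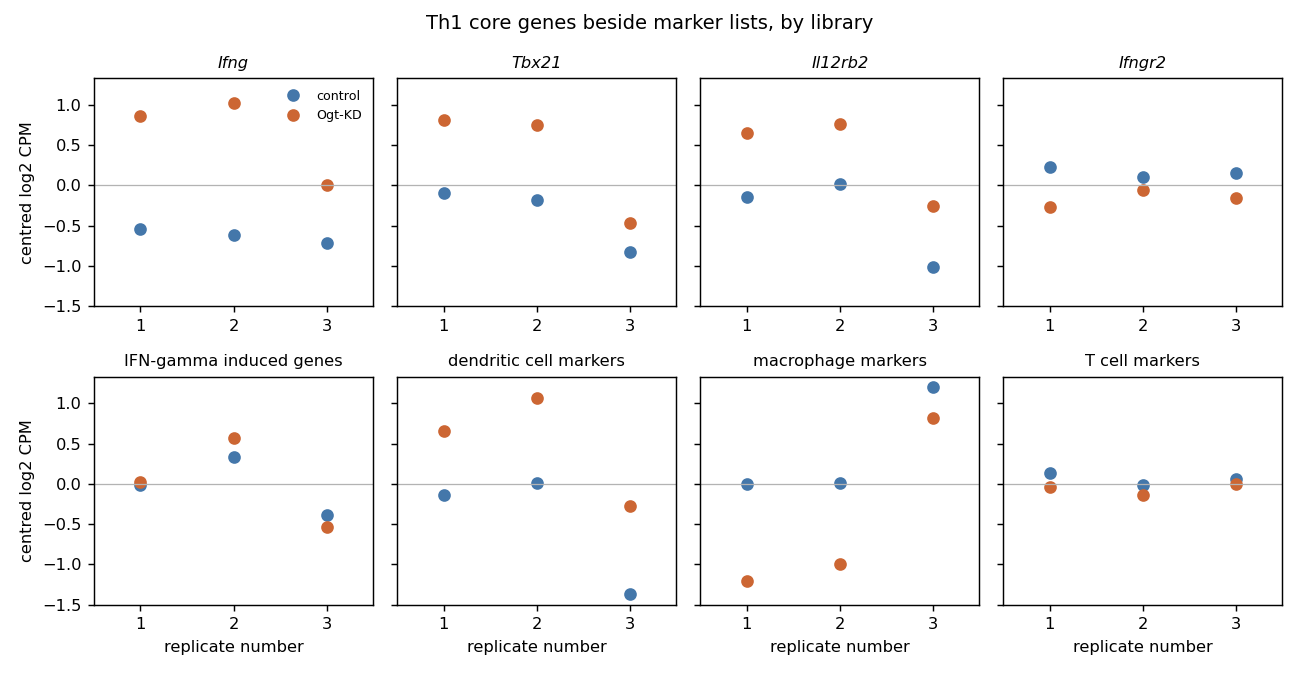
Centred log2 CPM by replicate number for 4 member genes (top) and the median over 4 lists (bottom), with control in blue and Ogt-KD in orange. Within each group replicate 3 is lowest for Ifng, Tbx21, Il12rb2 and the dendritic cell markers and highest for the macrophage markers, while T cell markers stay within -0.14 to 0.14. The control values of Ifng lie close together.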

How the data were processed

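The deposited table holds whole-number read counts per Ensembl gene for the 6 libraries and, per the file headers, the authors' FPKM, which equalled the count over gene length and 1 constant per library within 0.1% for all genes of at least 20 reads. It also holds the authors' mean normalised signal per group (read to describe the table and for Ncr1, Klrb1c and Ifng), their log2 fold change, and their p-values and adjusted p-values. The gene length in bases, an other unit in the deposited table, entered only the FPKM check and levels per length. Per the submitters' processing notes reads were aligned with TopHat2 2.0.9 and Bowtie2 2.0.6 to mm9; for the read counter, the strand setting and the authors' test, the name is not given in the sources used here. Of 54532 identifiers 54409 matched GENCODE M21, 53499 with identical GRCm38 coordinates, among them all 8 members, so positions are on GRCm38.

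Counts were tested with edgeR 4.0.16 (R 4.3.3): TMM, filterByExpr, robust quasi-likelihood F test, Benjamini-Hochberg over 16075 genes, threshold 0.05. SE and intervals were derived from its p-values. DESeq2 1.42.0 and limma 3.58.1 (voom) were alternatives, as were RLE and upper quartile factors, no filter, each library left out, both replicate 3 libraries left out and the replicate block. The fits were tested on simulated data with 200 changed genes. Those libraries were drawn independently, with no effect shared by replicate number. The simulation therefore does not show how the fits behave with the replicate 3 pattern seen here. Correlations of the deviations across genes were 0.109, 0.346 and 0.523 for same-numbered libraries of replicates 1, 2 and 3. Control replicate 2 with Ogt-KD replicate 1 had 0.267, above the 0.109 of replicate 1. Control replicate 1 with Ogt-KD replicate 2 had 0.074. A replicate 3 library with another number had -0.122 to -0.418. These values set replicate 3 apart and do not settle the pairing of replicates 1 and 2. The labels state no pairing, and the block takes the replicate number in the library titles as the pair. P-values of the blocked fit can therefore be too small. Named genes are all 8 members and the 4 genes of each pathway list with the smallest p; some genes are not reported here. Members, lists and alternatives were chosen with earlier results of these data known. Depth ran from 18127031 to 25683453 counts, and reads carry no molecular identifiers.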

Additional observations from a re-analysis of the deposited data

How the results depend on the processing

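Each of the 8 members kept the sign of its log2 fold change over 13 alternative fits. The genes called over the whole table numbered 1 in the edgeR fit, 111 in DESeq2, 4 with no filter, 47 with the replicate block, 35 with both replicate 3 libraries left out, and 1 to 2 when 1 library was left out. Th1 core members called were 0, against 1 in DESeq2 (Ifng) and 2 with both replicate 3 libraries left out (Ifng and Tbx21). Receptor signalling genes called were 0, against 2 in DESeq2 (Il18rap and Il18r1), 1 with no filter (Il18rap) and 1 with the block (Il18rap). Partners and targets called were 0, against 4 in DESeq2, 1 with no filter, 2 with the block, 1 with both replicate 3 libraries left out and 0 to 1 when 1 library was left out (1 without Ogt-KD replicate 3). Lineage factors called were 0, against 1 with the block (Foxp3). Besides Il18rap and Foxp3, the replicate block called Ccl5, a member of the partners and targets, and 2 genes named elsewhere, H2-DMb2 and Zbtb46, at adjusted p-values of 0.0363, 0.0443 and 0.0481. It changed no other call among the members and pathway genes named. The cause of these differences was not tested. The difference in the log2 ratio of Il12rb2 to Il12rb1 ran from -0.12 to 0.40 and that of Runx3 to Zbtb7b from -0.071 to 0.044 when 1 library was left out. The Th1 core median ran from 0.51 to 0.85 over all 13 fits. Counts of 40 to 172 reads per library limit Hlx and Il12rb2.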

Other observations

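The genes whose values over the 6 libraries lay nearest to those of Ifng, by the root mean square difference of centred log2 CPM among 10978 genes, were Cdc25c (0.20), Neurl1b (0.21), Soat2 (0.21), Specc1 (0.22) and Cdh17 (0.22). Cdc25c, a phosphatase of mitotic entry, stood at 2.06, 2.62 and 2.37 CPM in control and 5.93, 6.64 and 4.48 CPM in Ogt-KD libraries. Nearest to Tbx21 were Haao (0.14), Npas4 (0.14), H2-DMb2 (0.16), Haus8 (0.16) and Igsf9 (0.17). H2-DMb2, which encodes a chain that loads peptide onto MHC class II, stood at 21.05, 25.3 and 13.1 CPM in control and 41.05, 44.7 and 21.7 CPM in Ogt-KD libraries. The choice rests on single libraries: when 1 library was left out, 0 to 2 of the 5 genes remained for Ifng and 0 to 2 for Tbx21.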
